A study of Arabidopsis thaliana with 20 samples.

Results

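The double mutant wrky25 wrky33 was compared with the Columbia wild type (Col-0) in rosettes that had not been exposed to ozone. The comparison was between 7 of the 20 libraries of the series, chosen by sample title: 3 wrky25 wrky33 control libraries and 4 Col-0 control libraries. All were of Arabidopsis thaliana whole rosettes at 3 weeks of age, each a pool of 5 rosettes. Another 7 libraries, from plants of the same genotypes given 350 ppb ozone for 2 h, gave the same genotype difference after exposure, and 3 control libraries of the single mutant wrky75 served to tell whether a difference was shared by another mutant line. The statistical fit held all 20 libraries, those of wrky75 under ozone among them. The labels used here give no allele names, no lesion positions and no number of lines per genotype, so each genotype is named by its label.

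WRKY proteins are plant transcription factors that bind the W-box, a short DNA motif with the core TTGAC. WRKY33 is known for turning on the synthesis of camalexin, the main antimicrobial compound of Arabidopsis, and for limiting salicylic acid responses during infection by necrotrophic fungi. WRKY25 is a close relative with overlapping roles in defence and in heat and salt stress, and WRKY75 acts in phosphate starvation, senescence and defence.

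Few transcripts differed between the unexposed rosettes of the 2 genotypes. In a fit of all 20 libraries 19954 genes were tested. Of these, 5 passed an adjusted p of 0.05, which is 0.0251% of those tested (quasi-likelihood F-test of edgeR, Benjamini-Hochberg). A gene that passed is called here. The count depended on the fit: it was 1 (ATCHX13) with only the 7 libraries compared or without any 1 mutant library, 3 without Col-0 replicate 3 or 4, 13 with the same-numbered libraries alone and the replicate block, and 19 with DESeq2. The potassium transporter gene ATCHX13, the pseudogene AT5G35935 and the membrane protein gene AT2G38480 were higher in wrky25 wrky33, and the retroelement SADHU3-2 and the hydrolase gene AT1G74290 were lower. ATCHX13 and AT2G38480 are the genes next to WRKY25 and WRKY33. With the replicate number as a block, 6 genes were called (0.0301%), of which 4 were shared with the fit without the block: WRKY25 and QQS were gained and SADHU3-2 was lost. Beyond the called genes, the median log2 fold change over all genes tested was 0.005, and 683 genes (3.42%) had an unadjusted p under 0.05.

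**Figure D1:**
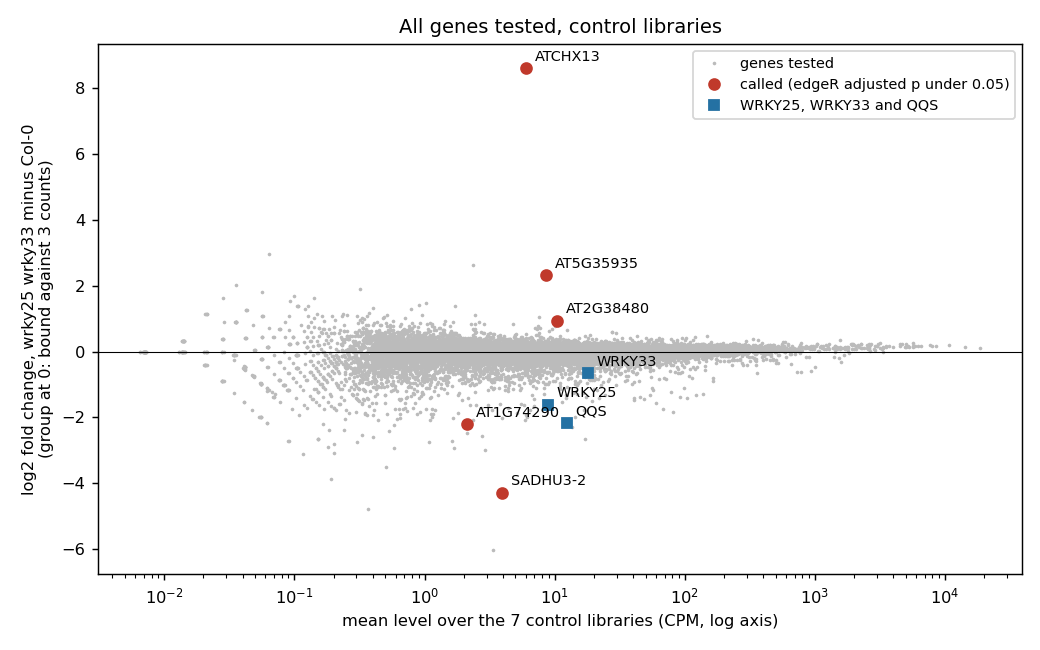
Each point is 1 of the 19954 genes tested, with its mean level over the 7 control libraries in CPM, that is, counts scaled to the library total (log axis) against the log2 fold change of wrky25 wrky33 over Col-0. Red points are the 5 called genes and blue squares WRKY25, WRKY33 and QQS. A gene at 0 in every library of a group is drawn at its bound against 3 counts, as is ATCHX13. Most genes lie close to 0, with a wider spread at low levels.

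Levels are given as CPM, scaled within a library and not by gene length, so they are compared between libraries and not between genes. Totals ran from 20486137 to 20611000 counts in wrky25 wrky33 control and from 20539101 to 20636186 in Col-0 control. At this depth the median standard error (SE) of a log2 fold change was 0.436 for genes under 1 CPM, 0.199 from 1 to 10 CPM, 0.129 from 10 to 100 CPM and 0.163 above 100 CPM. Same-numbered libraries of wrky25 wrky33 and Col-0 resembled each other most clearly in number 1, with a root mean square log2 distance of 0.18. This distance was 0.26 for number 2 and 0.25 for number 3. Between the genotypes, libraries of different number lay 0.25 to 0.432 apart. Among themselves the Col-0 libraries lay 0.231 to 0.414 apart and the mutant libraries 0.223 to 0.327, lowest between mutant replicates 2 and 3. On the first principal component of the 7 libraries, with 40.3% of the variance, Col-0 replicate 4 lay at 33.0 and the others between −24.5 and 16.5. Over the 10 control libraries of all 3 genotypes, replicate number was called for 4358 of 19152 genes (22.8%) and the genotype difference for 8 (0.0418%; edgeR). Of 18 markers of flowers, seeds and roots, 5 had no count in the 7 libraries and 3 passed the filter on low counts. The flower markers AG and SEP1 ran from 1.52 to 2.72 CPM and from 0.294 to 1.15 CPM over the 7 libraries. The beta-glucosidase gene PYK10, an abundant root gene that leaves also express, ran from 16.6 to 79.8 CPM. The summed markers, for the most part PYK10, stood at 20.5 to 83.1 CPM in Col-0 and 42.1 to 63.8 CPM in wrky25 wrky33.

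Both mutated genes were still transcribed in the libraries labelled wrky25 wrky33. WRKY25 (AT2G30250, chromosome 2) stood at 8.38, 16.1, 12.6 and 12.9 CPM in Col-0 replicates 1 to 4 and at 3.58, 5.55 and 3.14 CPM in wrky25 wrky33 replicates 1 to 3. All 3 mutant libraries were below all 4 wild-type libraries. The log2 fold change was −1.61 ± 0.28 (SE), which missed the threshold without the replicate block (adjusted p = 0.0529, edgeR) and passed it with the block (0.00153). Over 16 alternatives of the fit WRKY25 was called in 8, with adjusted p from 1.91e-05 to 0.76. Under ozone WRKY25 did not stay low: the mutant libraries held 176.2, 222.9 and 180.4 CPM and the wild-type libraries 104.1 to 143.8 CPM. Its ozone response differed between the genotypes by a log2 value of 2.27 ± 0.36 (adjusted p = 0.00454, edgeR).

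WRKY33 (AT2G38470, chromosome 2) ran at 14.75, 23.78, 23.05 and 23.81 CPM in Col-0 and at 12.6, 14.2 and 13.6 CPM in the mutant. The groups did not overlap, but Col-0 replicate 1 lay just above the mutant libraries. The log2 fold change of −0.67 ± 0.41 did not pass (adjusted p = 1, edgeR; 0.997 with the block). WRKY75 was near the limit of detection in unexposed rosettes, at 0.351, 0.573, 0.734 and 0.273 CPM in Col-0 and 0, 0 and 0.203 CPM in wrky25 wrky33, a log2 fold change of −2.74 ± 1.16 (adjusted p = 1, edgeR). In the ozone libraries WRKY75 was lower in the mutant by a log2 fold change of −1.96 ± 0.36 (adjusted p = 0.00225, edgeR). Because the lesion sites are not given, counts over a whole gene do not check the genotype labels.

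ATCHX13 (AT2G30240) was the gene with the clearest difference. It encodes a cation/H+ exchanger of the plasma membrane that takes up potassium, and lies on the minus strand of chromosome 2 from 12899907 to 12902779 in the coordinates of the files (TAIR10), on the 3′ side of WRKY25 and on the same strand, 456 bases away. Not 1 read was counted in any of the 4 Col-0 control libraries, against 12.7, 12.9 and 16.7 CPM in wrky25 wrky33 (255, 258 and 329 counts). The mean of 14.1 ± 2.25 CPM (SD, n = 3) was at least 391-fold higher than a floor of 3 counts over the Col-0 group. Its adjusted p was 7.79e-08 (edgeR; 5.38e-06 with the block), and ATCHX13 was called in all 16 alternatives.

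The wrky75 control libraries also had no count of ATCHX13, so the level in wrky25 wrky33 was at least 285-fold higher than there (adjusted p = 3.99e-07 for the direct comparison, edgeR). Under ozone the transcript was again counted mainly in the double mutant, at 3.22, 2.35 and 2.57 CPM (176 counts), while 4 Col-0 ozone libraries held 2 counts together and 3 wrky75 ozone libraries another 2. The ozone difference passed as well (adjusted p = 1.89e-06, edgeR). Within the double mutant the 3 ozone libraries lay below the 3 control libraries.

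AT2G38480 encodes a CASP-like protein (CASPL4B1), of a family related to the membrane proteins that organise the Casparian strip. In Col-0 control libraries it stood at 8.38, 7.31, 6.41 and 7.87 CPM, and in wrky25 wrky33 at 13.9, 14.5 and 14.7 CPM. The 3 mutant libraries were close together and all above the wild type, with a log2 fold change of 0.94 ± 0.14 (adjusted p = 0.0116, edgeR; 0.00199 with the block). It was called in 11 of 16 alternatives and missed without any 1 mutant library, without Col-0 replicate 3 and with only the groups compared, with adjusted p up to 0.129 (edgeR). Under ozone the gap was wider, with 2.06 to 3.29 CPM in Col-0 and 12.65, 17.08 and 13.01 CPM in the mutant (2.46 ± 0.15, adjusted p = 1.43e-08). The ozone response itself differed by 1.52 ± 0.20 (adjusted p = 0.000961, edgeR), since the mean was 14.4 CPM without and 14.2 CPM with ozone in wrky25 wrky33 against 7.49 and 2.595 CPM in Col-0. This gene lies on the minus strand and WRKY33 on the plus strand, and their 3′ ends overlap by 26 bases. The library kit does not mark strand, so reads in the overlap cannot be assigned to 1 of the 2 genes. Whether reads of WRKY33 transcripts, in the overlap or past it, were counted for AT2G38480 was not tested. In wrky75 control libraries AT2G38480 was at 8.345, 9.865 and 9.001 CPM, below every wrky25 wrky33 control library. The direct difference between these mutants did not pass (0.66 ± 0.15, adjusted p = 0.741, edgeR). In wrky75 ozone libraries AT2G38480 was at 1.42, 1.897 and 1.644 CPM, below every wrky25 wrky33 ozone library.

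Other genes around both loci showed no call. Among the 20 annotated genes on each side of WRKY25, 29 of 40 passed the filter, and apart from ATCHX13 their log2 fold changes lay between −0.301 and 0.626. Around WRKY33, 30 of 40 were tested, and apart from AT2G38480 they lay between −0.949 and 0.49. That range leaves out AT2G38465 on the other side of WRKY33, which was near the limit of detection, with means of 0.05 CPM in the mutant and 0.108 CPM in Col-0. Within 500 kb of WRKY25 205 genes were tested, of which ATCHX13 was called, and with the block WRKY25 as well. The same distance around WRKY33 held 232 tested genes, of which AT2G38480 was called in both fits. Chromosome 2 carried 2 of the 5 called genes and 15.1% of the genes tested.

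**Figure D2:**
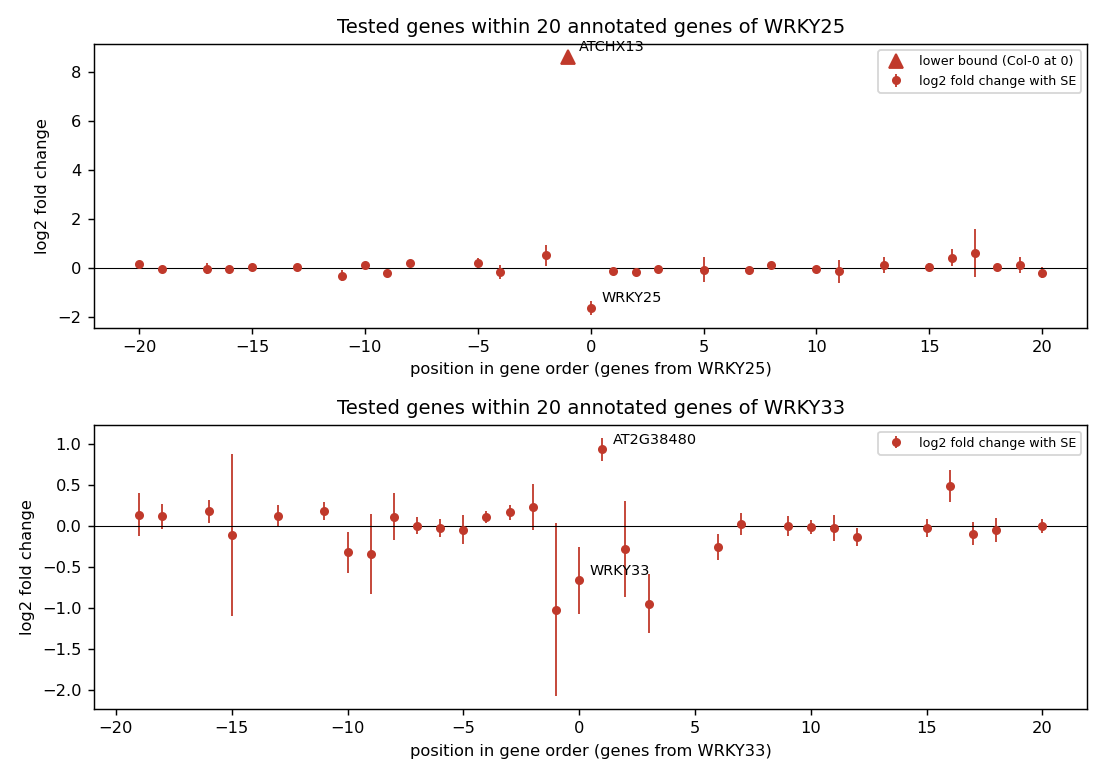
Log2 fold change of wrky25 wrky33 over Col-0 in control libraries for tested genes up to 20 genes to either side of WRKY25 (top) and WRKY33 (bottom), in the order of the annotation. Bars are the SE, and the triangle marks the lower bound of ATCHX13, which was at 0 in Col-0. ATCHX13 next to WRKY25 and AT2G38480 next to WRKY33 are the highest points of their panels, while the lowest points around WRKY33 are genes of low level with wide errors. The vertical scales differ.

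The other called genes lie away from both mutated loci. The 250 bases before the annotated start of 4 called genes, the first 2 increases and the first 2 decreases by size, are shown. A WRKY factor could meet a W-box there, and sites outside these windows were not searched. The window of ATCHX13 is also most of the space between it and WRKY25. These 4 stretches were read from TAIR10.1 at RefSeq gene starts, 5′ to 3′ on the strand of the gene. Capitals mark TTGAC on either strand (read as GTCAA where it is on the other strand).
ATCHX13, chr2:12902816-12903065, minus strand: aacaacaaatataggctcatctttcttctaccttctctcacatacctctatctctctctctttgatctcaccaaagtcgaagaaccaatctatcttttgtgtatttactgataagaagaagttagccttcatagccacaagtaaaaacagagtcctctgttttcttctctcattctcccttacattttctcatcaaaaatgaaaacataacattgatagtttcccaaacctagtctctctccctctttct
AT5G35935, chr5:14089892-14090141, minus strand: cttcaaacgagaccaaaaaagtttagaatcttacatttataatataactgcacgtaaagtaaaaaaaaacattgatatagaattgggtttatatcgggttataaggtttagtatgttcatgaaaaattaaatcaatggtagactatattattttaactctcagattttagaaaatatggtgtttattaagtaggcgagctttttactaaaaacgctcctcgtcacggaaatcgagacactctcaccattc
SADHU3-2, chr3:14750295-14750544, minus strand: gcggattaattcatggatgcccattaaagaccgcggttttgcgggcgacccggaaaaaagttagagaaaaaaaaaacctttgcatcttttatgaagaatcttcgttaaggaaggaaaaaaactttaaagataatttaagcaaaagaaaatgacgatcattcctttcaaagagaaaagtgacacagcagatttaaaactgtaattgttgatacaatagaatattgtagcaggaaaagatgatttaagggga
AT1G74290, chr1:27931586-27931835, plus strand: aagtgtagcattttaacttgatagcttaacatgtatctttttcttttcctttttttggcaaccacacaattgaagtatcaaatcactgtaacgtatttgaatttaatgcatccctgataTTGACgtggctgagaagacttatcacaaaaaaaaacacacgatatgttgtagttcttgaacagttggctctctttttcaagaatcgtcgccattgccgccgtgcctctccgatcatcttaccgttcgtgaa

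The AT1G74290 stretch holds 1 TTGAC core, and the other 3 hold 0, as does that of AT2G38480. None of the 5 holds the full W-box TTGACC or TTGACT on either strand. Among 19847 tested genes with a RefSeq start, 45% have the core and 28.4% the full motif in the same window.

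AT5G35935 (chromosome 5, minus strand, 14083388 to 14089891), a pseudogene in RefSeq, was present in Col-0 at 2.91, 1.72, 4.45 and 3.64 CPM and in wrky25 wrky33 at 16.7, 14.6 and 16.1 CPM. All 3 mutant libraries were far above the highest wild-type value. The difference was a log2 value of 2.31 ± 0.34 (adjusted p = 0.0116, edgeR) and 2.24 ± 0.33 in the ozone libraries (adjusted p = 0.000339). The control call held in 11 of 16 alternatives and was lost without any 1 mutant library, without Col-0 replicate 4 and with only the groups compared (adjusted p up to 0.129, edgeR). The wrky75 line was low, at 0.0503, 0.0958 and 0.151 CPM, so that the 3 genotypes held 3 distinct levels without overlap. The double mutant exceeded wrky75 by a log2 value of 7.24 ± 0.60 (adjusted p = 4.71e-06, edgeR). Set against the same Col-0 control libraries, the log2 fold change was 2.31 in wrky25 wrky33 and −4.92 in wrky75.

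SADHU3-2 (AT3G42658, chromosome 3) is a non-coding retroelement of the Sadhu family, and RefSeq notes that the element is silenced by methylation in some natural accessions. It stood at 4.32, 3.92, 8.27 and 9.88 CPM in Col-0 and at 0.397, 0.5 and 0.101 CPM in the mutant. The wild-type libraries varied over a wide range but none came near the mutant libraries. The log2 fold change of −4.28 ± 0.71 passed without the block (adjusted p = 0.0408, edgeR) and missed with it (0.0781). SADHU3-2 was called in 9 of 16 alternatives, and was also lost without any 1 mutant library, without Col-0 replicate 3 or 4 and with only the groups compared (adjusted p up to 0.533, edgeR). Low levels were also found in wrky75, at 0.151, 0.0958 and 0.101 CPM; set against the same Col-0 libraries the log2 fold change was −5.77 ± 0.83 there, and the direct difference between the mutants did not pass (1.48 ± 1.21, adjusted p = 1, edgeR). Under ozone Col-0 ran from 0 to 2.25 CPM and wrky25 wrky33 from 0 to 0.18 CPM (−3.75 ± 0.96, adjusted p = 0.0255, edgeR), and the groups overlapped at 0.

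AT1G74290 (chromosome 1, plus strand, from 27931836 to 27934268 in RefSeq) encodes a protein of the alpha/beta-hydrolase superfamily. Its levels were 2.86, 3.58, 3.28 and 3.00 CPM in Col-0 and 0.497, 0.9 and 0.659 CPM in wrky25 wrky33, well apart. The change was a log2 value of −2.21 ± 0.32 in control (adjusted p = 0.0116, edgeR) and −2.04 ± 0.39 under ozone (adjusted p = 0.00313). The control call held in 12 of 16 alternatives and failed without any 1 mutant library and with only the groups compared (adjusted p up to 0.167, edgeR). In wrky75 control libraries the level was 1.81, 3.11 and 2.01 CPM, and the direct difference from the double mutant did not pass (−1.75 ± 0.34, adjusted p = 0.244, edgeR). Copies elsewhere in the genome match 44.2% of the gene at 95% identity or more over at least 100 bases, so part of its reads may be shared. AT1G74280, the neighbour on its 5′ side and chosen after its values were seen, averaged 4.08 ± 0.73 CPM (SD, n = 4) in Col-0 and 2.57 ± 0.17 CPM (SD, n = 3) in the mutant, a log2 fold change of −0.66 ± 0.14 that did not pass (adjusted p = 0.264, edgeR).

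QQS (AT3G30720, chromosome 3), a gene found in Arabidopsis but not in most other plants, affects the balance of starch and protein. Col-0 held 21.3, 11.7, 14.3 and 26.7 CPM and the mutant 4.57, 4.45 and 3.34 CPM, with no overlap. This log2 difference of −2.16 ± 0.37 missed the threshold without the block (adjusted p = 0.0529, edgeR) and passed with it (0.0194), and QQS was called in 6 of 16 alternatives. Under ozone it passed in both fits (−1.81 ± 0.40, adjusted p = 0.00893, edgeR). The wrky75 controls lay at 6.99, 12.4 and 6.13 CPM, between the 2 other genotypes but for an overlap with Col-0, and the direct difference of the mutants did not pass (−1.05 ± 0.39, adjusted p = 1, edgeR).

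**Figure D3:**
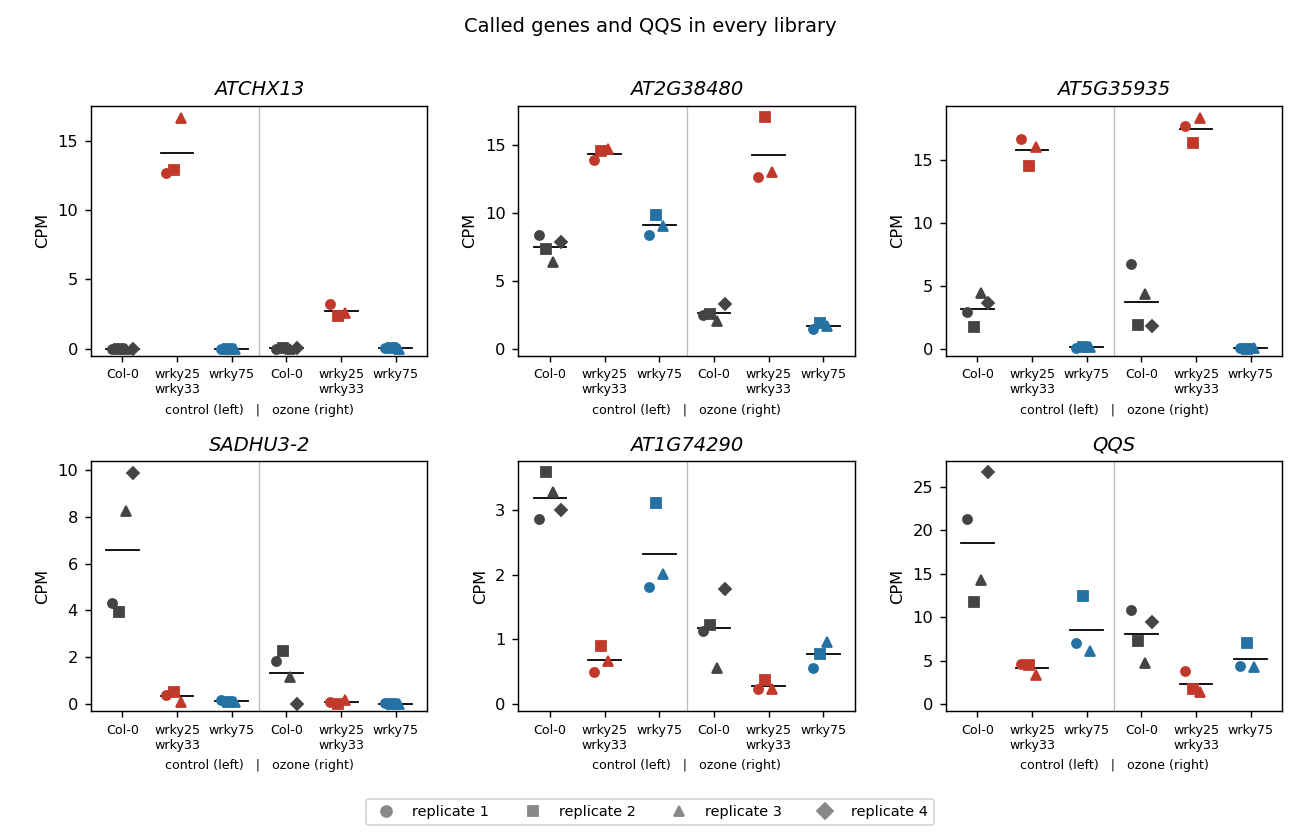
Level in CPM of the 5 called genes and QQS in all 20 libraries, by genotype, with control libraries left and ozone libraries right of the grey line. Each symbol is 1 library, its shape the replicate number, and the black line the group mean. In the control libraries the red points of wrky25 wrky33 do not overlap the dark points of Col-0 in any panel.

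All 5 called genes also passed, in the same direction, between the ozone libraries. The means compared there come from other libraries, but all 20 libraries share 1 estimate of spread in this fit. With only the 7 ozone libraries fitted, 4 of the 5 passed and SADHU3-2 did not (adjusted p = 0.143, edgeR). There 1064 genes were called (5.33%; 311 higher and 753 lower, edgeR), and 2394 with the block (12%). The ozone response of the double mutant differed from that of Col-0 for 191 genes (0.957%), and for 618 with the block (3.1%). The 3 genes with the smallest p in that test differed little between the genotypes before ozone. AT4G30910, an aminopeptidase, lay between 9.395 and 12.77 CPM in every library of both groups. CYP71B6, which converts indole-3-acetonitrile, lay at 37.58 to 48.02 CPM in Col-0 and 33.88 to 39.66 CPM in the mutant. ALDH2C4, an aldehyde dehydrogenase of ferulic and sinapic acid synthesis, lay at 96.5 to 114 and 84.1 to 94.2 CPM, without overlap. The log2 fold changes of these 3 genes in control were 0.04 ± 0.10, −0.19 ± 0.13 and −0.21 ± 0.11 (adjusted p = 1 for each, edgeR).

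Against wrky75, the double mutant differed in 4 genes without ozone (0.02%; 5 with the block, 0.0251%). They were ATCHX13 and AT5G35935, which were higher in wrky25 wrky33, and MRD1 and AT3G30122, which were lower. MRD1 was counted mainly in wrky75, at 1.86, 2.35 and 2.41 CPM, against 1 count in all wrky25 wrky33 control libraries and 2 in all Col-0 control libraries (adjusted p = 0.000587, edgeR). AT3G30122, a transcribed pseudogene in RefSeq that was named after its values were seen, differed by −1.61 ± 0.21 (adjusted p = 0.00177, edgeR). It was not called between wrky25 wrky33 and Col-0, while wrky75 exceeded Col-0 by a log2 value of 1.74 ± 0.19 (adjusted p = 0.000335, edgeR).

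Some genes outside the threshold were called in 1 or 2 of the 16 alternatives. AT3G55920, of the cyclophilin family, stood at 5.168, 7.783, 3.816 and 4.097 CPM in Col-0 and 11.92, 9.695 and 10.99 CPM in the mutant (1.06 ± 0.19, adjusted p = 0.0792, edgeR), but wrky75 was as high, at 10.3, 10.7 and 11.2 CPM, and the ozone libraries of the double mutant were not called (0.18 ± 0.19, adjusted p = 0.797, edgeR). LBD26, of the LOB domain family, was at 0.342 to 1.46 CPM in Col-0 and 2.73, 3.00 and 2.28 CPM in wrky25 wrky33 (1.38 ± 0.30, adjusted p = 0.253, edgeR) and passed under ozone (2.09 ± 0.31, adjusted p = 0.000323). AT5G38900 was at 1.71, 6.30, 3.18 and 1.91 CPM in Col-0 and 0.546, 0.35 and 0.861 CPM in the mutant (−2.47 ± 0.66, adjusted p = 0.851, edgeR) and also passed under ozone (−3.21 ± 0.47, adjusted p = 0.000308). These 3 were named after their values were seen.

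Genes of the known WRKY pathways and of other processes were then read as lists. The other processes include photosynthesis, growth, flowering and the circadian clock, and tissue markers and reference genes were also listed. Of 413 list members, 376 were tested and 0 were called without the block, where 0.0251% of all genes were, and WRKY25 alone was called with it. An unadjusted p under 0.05 was found for 41 of the 376 members, WRKY25 and WRKY75 among them, and for 683 of 19954 genes tested (3.42%). Of the 19 genes that DESeq2 called, 6 were members: WRKY25, PAD3, CYP71A13, GSTF6, GSTF7 and CRK23. Groups did not overlap for 33 members (8.8%), WRKY25, WRKY33 and WRKY75 among them, against 4.41% of all genes tested. In all 3 same-numbered pairs 140 of the 376 members differed in the same direction, as did 33.9% of all genes tested. Members were chosen with earlier results of these data known, so these shares cannot serve as a test of the lists. In whole rosettes, fewer cells of a type and less RNA per cell cannot be told apart.

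In camalexin synthesis no gene was called in the fits of all 20 libraries, with or without the block, but a pair of its enzymes had mutant libraries below all wild-type libraries. CYP71A13, which makes indole-3-acetonitrile for camalexin, stood at 4.82, 7.64, 4.89 and 1.41 CPM in Col-0 and at 0.546, 0.3 and 0.912 CPM in wrky25 wrky33 (log2 fold change −2.99 ± 0.79, adjusted p = 0.851, edgeR). PAD3, the last enzyme of camalexin synthesis, stood at 5.77, 5.40, 4.45 and 1.64 CPM and at 0.447, 0.75 and 0.962 CPM (−2.57 ± 0.56, adjusted p = 0.282, edgeR). All mutant libraries lay below all wild-type libraries for both genes, and Col-0 replicate 4 was the lowest wild-type library for both. DESeq2 and the edgeR fit on the same-numbered pairs alone with the block called both, with adjusted p down to 0.000337 for PAD3 and 0.0129 for CYP71A13.

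Under ozone PAD3 held 271.3 to 414.8 CPM in wrky25 wrky33 and 1540 to 2112 CPM in Col-0, and CYP71A13 held 11.1 to 33.8 and 244 to 1009 CPM. Both passed there (PAD3 −2.29 and CYP71A13 −4.84 on the log2 scale, adjusted p = 0.00227 and 0.000143, edgeR). In unexposed wrky75 the 2 genes were uneven, with PAD3 at 1.005, 6.561 and 1.81 CPM and CYP71A13 at 1.961, 7.997 and 1.257 CPM.

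The rest of the list of camalexin and tryptophan ranged more widely. GSTF6, a glutathione transferase that can act in camalexin synthesis, was at 40.6, 100, 55.2 and 195.5 CPM in Col-0 and 20.51, 31.03 and 36.52 CPM in the mutant (−1.74 ± 0.43, adjusted p = 0.75, edgeR). The tryptophan enzymes TSA1 and TSB1, with log2 values of −0.04 and −0.03, and the indole glucosinolate enzyme CYP83B1, with 0.03, were close to 0. Of 22 tested members 13 were lower and 9 higher, with a median of −0.034 (−0.032 with members at 0 in a group set to their bound), and 4 did not overlap, where 4.41% of all genes did not. The median changed sign in 2 of 16 alternatives.

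Defence genes of the salicylic acid pathway varied widely among the Col-0 libraries, and none was called. PR1, a pathogenesis-related protein and the standard marker of this hormone, stood at 31.2, 251.8, 145.7 and 43.9 CPM in Col-0 and at 36.6, 29.7 and 32.6 CPM in wrky25 wrky33. Col-0 replicates 2 and 3 were high, while replicates 1 and 4 were near the mutant libraries. It had a log2 fold change of −1.84 ± 0.97 (adjusted p = 1, edgeR). ALD1, which makes the precursor of pipecolic acid, stood at 1.656, 13.04, 5.48 and 3.004 CPM against 2.14, 1.40 and 0.709 CPM (−2.03 ± 0.77, adjusted p = 1), and PR2, a glucanase, at 29.5, 193.0, 69.7 and 42.6 CPM against 29.8, 37.8 and 16.5 CPM (−1.58 ± 0.68, adjusted p = 1).

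All 17 members of the list had a fitted log2 fold change below 0, with a median of −0.601, where the median of all genes was 0.005. Within the pair of libraries numbered 1, however, 13 of the 17 were higher in the mutant, with a median log2 ratio of 0.232, whereas in pairs 2 and 3 17 and 16 of the 17 were lower, with medians of −1.535 and −1.001. Without Col-0 replicate 2 the list's median was −0.253, with 12 of 17 lower. The summed level of the list was 237.4, 860.6, 488.4 and 279.4 CPM in Col-0 and 257.9, 261.5 and 206.7 CPM in the mutant. The wrky75 controls were also highest in replicate 2, at 243.5, 476.0 and 160.9 CPM.

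**Figure D4:**
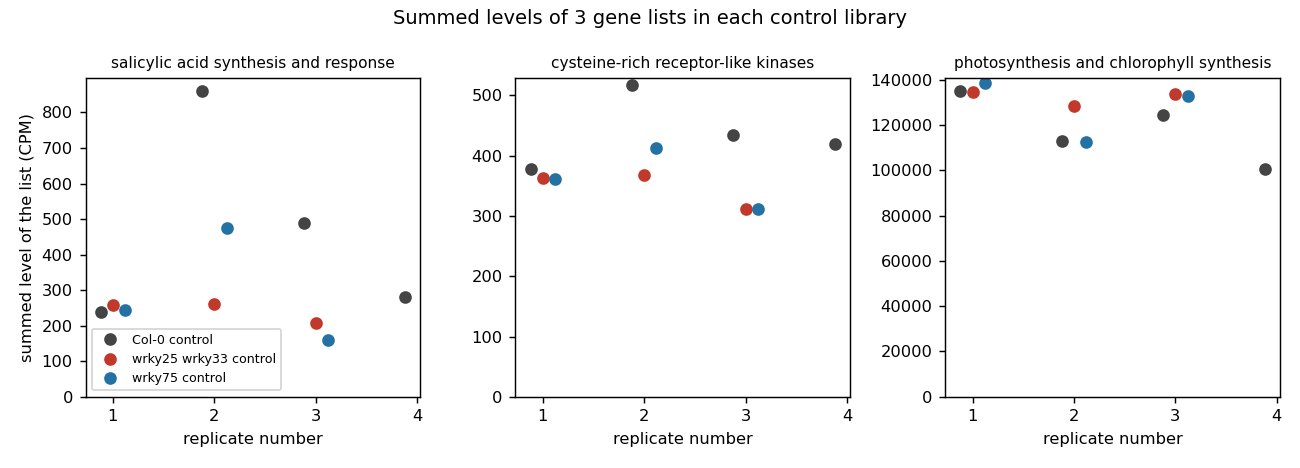
Summed level in CPM of 3 gene lists in each control library, by replicate number and genotype; each point is 1 library. Col-0 replicate 2 stands highest for salicylic acid and for the receptor-like kinases, the genotypes nearly coincide in replicate 1, and Col-0 replicate 4 is lowest for photosynthesis.

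Cysteine-rich receptor-like kinases, membrane kinases that respond to pathogens and to apoplastic reactive oxygen, were lower in the fit for 22 of 24 members, with a median of −0.619. CRK7 stood at 3.56, 13.9, 8.90 and 3.23 CPM in Col-0 and 2.53, 2.75 and 0.811 CPM in wrky25 wrky33 (−1.86 ± 0.56, adjusted p = 1, edgeR). CRK23 stood at 1.003, 5.205, 2.936 and 1.32 CPM and 0.993, 0.75 and 0.405 CPM (−1.86 ± 0.49, adjusted p = 0.851, edgeR). For both genes the groups did not overlap, but replicate 1 of Col-0 came close to replicate 1 of the mutant. Unadjusted p was under 0.05 for 8 of 24 members, where it was for 3.42% of all genes, 4 did not overlap (16.7%, against 4.41% of all genes), and 0 were called, where DESeq2 called CRK23. Without Col-0 replicate 2 the list's median was −0.399. In pair 1 the median log2 ratio was −0.042, in pair 2 −0.73 and in pair 3 −1.12. CRK6 ran at 6.523, 31.9, 17.03 and 10.11 CPM against 5.812, 9.895 and 4.002 CPM (−1.32 ± 0.51, adjusted p = 1, edgeR), with overlap.

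The genes of pattern-triggered immunity, the response to microbial molecules at the cell surface, followed a like pattern over the pairs. Of 20 members 15 were lower, with a median of −0.327 (−0.286 with members at 0 set to their bound; −0.196 with the replicate block). In pair 1 5 of 20 were lower, in pair 2 15 and in pair 3 18. RLP23, the receptor of a peptide shared by NLP toxins, stood at 13.7, 48.6, 29.2 and 15.3 CPM in Col-0 and 10.03, 11.44 and 6.636 CPM in the mutant (−1.51 ± 0.45, adjusted p = 1, edgeR). NHL10, a marker of early signalling, stood at 0.502, 1.77, 0.979 and 0.41 CPM and 0.348, 0.15 and 0.152 CPM (−2.04 ± 0.64, adjusted p = 1, edgeR).

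Among 35 other WRKY factors 28 were lower in the fit, with a median of −0.275 and 0 called. That median was −0.457 without Col-0 replicate 1 and −0.15 without Col-0 replicate 2. In pair 1, however, 20 of the 35 were higher in the mutant. WRKY30 was at 0.702, 1.77, 1.03 and 0.546 CPM in Col-0 and 0.397, 0.05 and 0.456 CPM in wrky25 wrky33 (−1.73 ± 1.12, adjusted p = 1, edgeR), and WRKY53, a regulator of leaf senescence, at 2.51, 7.16, 5.04 and 2.69 CPM and 1.34, 1.95 and 2.63 CPM (−1.14 ± 0.53, adjusted p = 1). Partners of WRKY33 and the kinases upstream of it had 8 of 10 members lower, with a median of −0.169 (−0.108 without Col-0 replicate 2). SIB1, a VQ protein that binds WRKY33, was at 7.48, 16.7, 15.5 and 15.5 CPM against 8.54, 9.24 and 6.38 CPM (−0.77 ± 0.33, adjusted p = 1, edgeR). Its relative SIB2 was at 16.2, 22.2, 19.6 and 23.1 CPM against 14.6, 16.99 and 13.12 CPM (−0.44 ± 0.13, adjusted p = 1, edgeR). For both, replicate 1 of Col-0 lay within the range of the mutant libraries.

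Among genes of oxidative stress and detoxification 7 of 27 members did not overlap (25.9%, against 4.41% of all genes), and 0 were called in the fits of all 20 libraries. GSTF7, a glutathione transferase induced by salicylic acid, stood at 15.5, 45.0, 24.1 and 12.3 CPM in Col-0 and 7.05, 8.65 and 5.67 CPM in the mutant (−1.76 ± 0.45, adjusted p = 0.75, edgeR), and was called by DESeq2 (0.026) and by the edgeR fit on same-numbered pairs with the block (0.0151). GSTU9 was at 0.251, 0.764, 0.734 and 0.865 CPM against 0.149, 0.2 and 0.101 CPM (−2.09 ± 0.78, adjusted p = 1, edgeR) and passed under ozone (−2.76, adjusted p = 0.000272). AOX1D, an alternative oxidase of mitochondria, was at 0.452, 1.81, 1.13 and 0.501 CPM against 0.298, 0.25 and 0.304 CPM (−1.76 ± 0.82, adjusted p = 1). The median of the list was −0.235, with 18 of 27 lower, and −0.129 without Col-0 replicate 2. The catalases CAT1 and CAT2 and the ascorbate peroxidase APX1 had log2 values of 0.04, 0.10 and 0.11.

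Photosynthesis genes had small values in the other direction. The fitted log2 fold change was above 0 for 26 of 26 members, with a median of 0.158, and none of them passed (edgeR; 0 with an unadjusted p under 0.05 and 0 called by DESeq2). In pair 1 15 of 26 were higher, in pair 2 26 and in pair 3 24. The summed level was 134920, 113060, 124580 and 100650 CPM in Col-0 and 134660, 128410 and 133470 CPM in wrky25 wrky33. PORA, a protochlorophyllide reductase of seedlings, depended on replicate 1 in both genotypes, at 5.92, 0.621, 1.13 and 0.91 CPM and 8.10, 1.15 and 2.18 CPM.

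**Figure D5:**
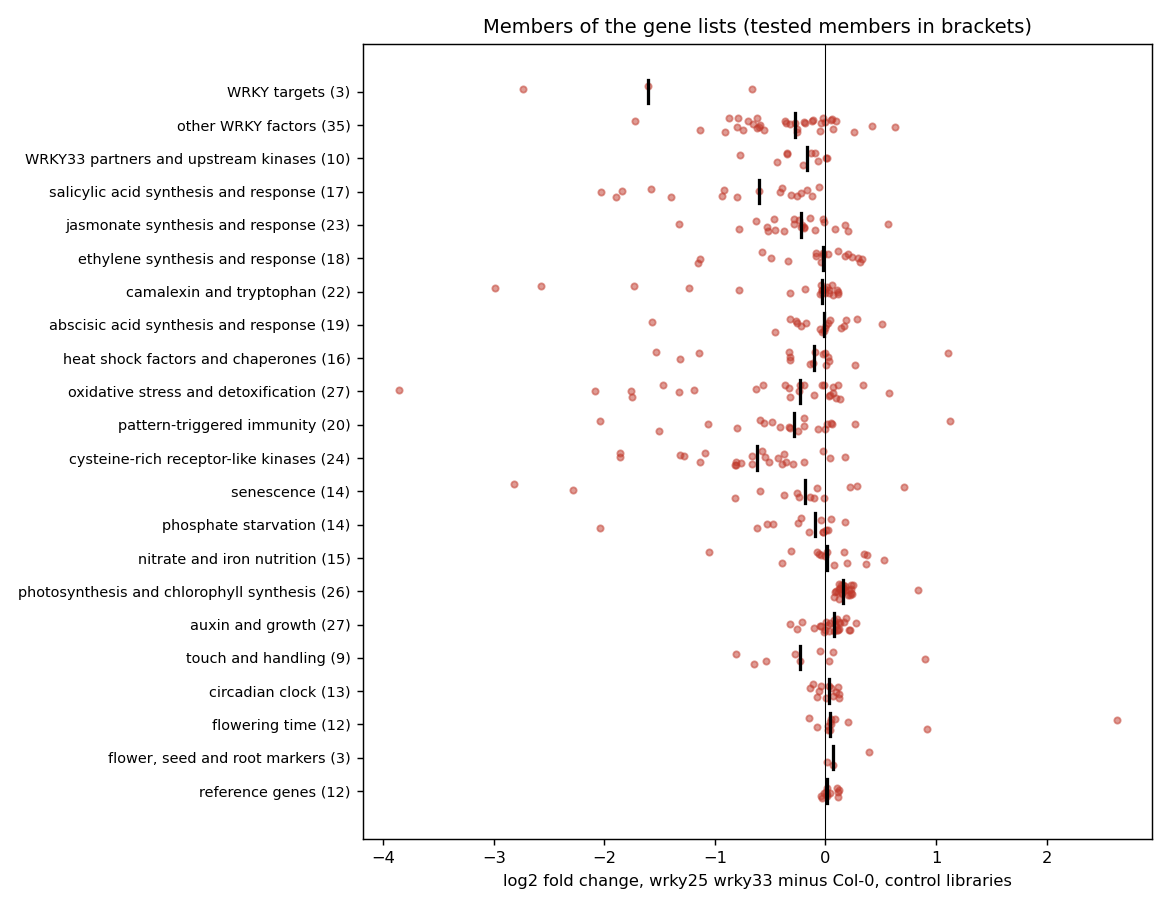
Log2 fold change of wrky25 wrky33 over Col-0 in control libraries for each tested member of 22 gene lists; each point is 1 gene and the black bar the median of the list. A member at 0 in a group is drawn at its bound against 3 counts. The medians of salicylic acid (−0.601) and of the receptor-like kinases (−0.619) lie farthest below 0 apart from the list of WRKY25, WRKY33 and WRKY75.

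Flowering time genes were close to 0 in the median (0.044, with 10 of 12 higher), except for MAF5 and MAF4, neighbouring repressors of flowering. MAF5 stood at 0.5519, 1.098, 0.7339 and 0.5007 CPM in Col-0 and at 10.68, 1.299 and 1.52 CPM in wrky25 wrky33, with no overlap, and replicate 1 of the mutant was far above replicates 2 and 3. The same number stood out under ozone, with 7.68, 0.462 and 0.721 CPM, and all 3 wrky75 control libraries were high, at 16.44, 14.03 and 14.33 CPM. The log2 fold change of 2.63 ± 0.81 did not pass (adjusted p = 1, edgeR) and was 0.96 without replicate 1 of the mutant. MAF4 was at 3.58, 1.55 and 0.76 CPM in the mutant and 0.865 to 1.15 CPM in Col-0.

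The remaining lists had 0 called members in either fit. Medians below 0 were found for jasmonate (−0.217, 19 of 23 lower), touch and handling (−0.235, 6 of 9), senescence (−0.189, 11 of 14), heat shock (−0.105, 11 of 16), phosphate starvation (−0.092, 10 of 14), ethylene (−0.023, 10 of 18) and abscisic acid (−0.018, 11 of 19). Medians above 0 were found for auxin and growth (0.076, 19 of 27 higher), the circadian clock (0.029, 8 of 13), reference genes (0.018, 9 of 12), nitrate and iron nutrition (0.012, 8 of 15) and the 3 tested markers of other tissues (0.066). These medians depended on the fit. That of jasmonate ran from −0.541 to 0.031 over the 16 alternatives, with 0.031 without mutant replicate 1, and 21 of its 23 members were lower in pair 1 against 12 and 11 in pairs 2 and 3. The touch median ran from −0.397 to 0.052, with 0.052 without Col-0 replicate 3, and the heat shock median from −0.192 to 0.005. Senescence and phosphate starvation stayed below 0 but came to −0.014 and −0.013. The sign changed in 5 alternatives for the clock, in 4 each for abscisic acid, nitrate and iron, and reference genes, in 3 for ethylene, in 2 for the markers of other tissues and in 1 for auxin. Single members stood apart from these medians: SAG13, a dehydrogenase that marks early senescence and defence, was at 5.02, 34.9, 24.6 and 17.5 CPM in Col-0 and 3.23, 4.75 and 4.61 CPM in wrky25 wrky33 (−2.29 ± 0.64, adjusted p = 0.937, edgeR), with no overlap.

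HSFA3, a heat shock factor of drought and heat responses, was at 0.953, 0.573, 0.734 and 0.319 CPM in Col-0 and 1.29, 1.55 and 1.32 CPM in the mutant (1.11 ± 0.30, adjusted p = 0.899, edgeR). The storage protein VSP2, a marker of jasmonate, was highest in Col-0 replicate 4, at 177.7 CPM, where the other 6 libraries held 17.5 to 61.6 CPM. The endoplasmic reticulum chaperone BIP3 was highest in Col-0 replicate 2, at 21.7 CPM against 1.62 to 7.44 CPM in the others. Reference genes of quantitative PCR ranged from −0.037 to 0.118 on the log2 scale.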

How the data were processed

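Whole-rosette RNA of 20 libraries was counted per gene. The deposited values are raw whole-number counts. The submitters' processing notes name the TAIR10 build and, as tools without versions, HTSeq, TopHat2, SAMtools and FastQC; for strand setting and multiply mapped reads they give nothing. The kit (TruSeq RNA v2, per the labels' protocols) does not mark strand. Of 33602 genes, 32835 (97.72%) matched RefSeq TAIR10.1, which gave symbols; 7167 were at 0 throughout and 0 entries named no gene. Totals differed little, from 20486137 to 20771667; the labels record no equalising step.

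Counts were analysed with edgeR 4.0.16 in R 4.3.3. After filterByExpr on the 6 groups, 19954 genes with TMM factors entered 1 quasi-likelihood fit of all 20 libraries, so that groups of 3 and 4 shared 1 estimate of spread; p-values were adjusted over all genes, with 0.05 as threshold. Groups came from titles. P-values measure the spread between pools, and floors of 3 counts cover counting error only. DESeq2 1.42.0, other scaling factors, no filter, only the groups compared and each library left out were alternatives. Scripts were tested on simulated data. Same-numbered control libraries deviated together (correlations of deviations from the group means 0.573, 0.626 and 0.272), so the number was also fitted as a block. Among the 7 control libraries of Col-0 and wrky25 wrky33 no pair agreed within sampling noise (chi-square per degree of freedom at least 2.58). Pairs of other libraries were not examined in this way.

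Named genes were WRKY25, WRKY33 and WRKY75, the 12 largest called changes each way where groups did not overlap and 1 of them averaged 2 CPM or more (filled up from the block fit), called genes within 500 kb of WRKY25 or WRKY33, the first 3 of the wrky75 and ozone-response tests, and list members in order of change, leaving out those with 3 or fewer counts in a group. Members and lists were chosen with earlier results of these data known.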

Additional observations from a re-analysis of the deposited data

Results flagged for a closer look

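Among the named genes, 3 had a Col-0 control library that stood apart from the other 3 by Dixon's test at the 95% level, and each time it was replicate 1. WRKY33 was at 14.75 CPM there and at 23.05 to 23.81 CPM in the others, SIB1 at 7.476 CPM against 15.46 to 16.66 CPM, and PORA at 5.921 CPM against 0.6207 to 1.125 CPM. Chance alone flags about 1 in 20 groups. The test was run on many named genes in Col-0 control, and on some also in Col-0 ozone, so flags in this number can arise by chance.

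In 5 named genes the ozone response of wrky25 wrky33 differed from that of Col-0 (edgeR, adjusted p under 0.05). The difference was 1.521 on the log2 scale for AT2G38480 and 2.272 for WRKY25. It was −1.581 for ALDH2C4, −2.054 for CYP71B6 and −2.132 for AT4G30910, which were the genes with the smallest p in that test and were not called in control.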

How the results depend on the processing

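Of the 5 called genes, ATCHX13 passed in all 16 alternatives, AT1G74290 in 12, AT2G38480 and AT5G35935 in 11 and SADHU3-2 in 9, and none changed direction. Against 5 calls, 1 gene was called with only the groups compared, 13 with only same-numbered pairs and the replicate block, 19 with DESeq2, and, as alternatives chosen after seeing the data, 8 with 10 control libraries and the block and 8 without Col-0 replicate 4 and with the block. Leaving out 1 library gave 1 to 7 calls: 1, ATCHX13, without any 1 mutant library, 3 without Col-0 replicate 3 or 4, and 7 without replicate 1 or 2. Among single named genes the lone reversal was PORA, with a log2 value of −0.3542 without mutant replicate 1 and 2.1 without Col-0 replicate 1. Under ozone 707 genes were called with only the groups compared, 3012 with pairs and block and 2394 with the block. For the ozone response the counts were 113, 339, 618 and, with DESeq2, 372. DESeq2 called 10 genes against wrky75 and 27 for wrky75 against Col-0. The medians of 11 of the 22 lists changed sign in at least 1 alternative, as given with each list. The causes were not tested. The block changed no call of a named gene in control other than WRKY25, QQS and SADHU3-2. Upper-quartile or DESeq2 factors moved the median of all genes to 0.015 or −0.008. Below 1 CPM, a median SE of 0.436 limits what could be detected.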
